A study of Mus musculus with 9 samples.

Results

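Syndig1l, Tro and Gp9 are 3 of the 10096 genes measured on Illumina arrays of total RNA from B16 tumour environments, and they were chosen because their differences between the groups were among the largest and their tissue of origin was not evident. The platform annotation used here covers only the probes of the authors' deposited matrix. It names 1 probe for each gene, and all 3 probes were detected on all 9 arrays. The PC61 group held 4 samples from mice labelled as depleted of regulatory T cells (Treg) with PC61, an antibody to CD25. The PBS group held 5 samples from mice given phosphate-buffered saline. All mice were C57/Bl6, labelled as 8 weeks of age, and had received B16 melanoma cells 14 days before sampling. B16 is a transplantable mouse melanoma line, and the labels call the tissue its environment without saying how much surrounding skin or muscle was taken. The dose and timing of PC61 were not given in the sources used here, and nothing says whether each sample came from a separate mouse, so the spread between samples may in part be technical.

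Syndig1l encodes SynDIG2, also called capucin, a transmembrane protein of the dispanin family known from brain. Its relative SynDIG1 regulates AMPA-type glutamate receptors at synapses. Tro encodes trophinin, a member of the MAGE family known in human for adhesion between the embryo and the uterine lining, where it works with bystin and trophinin-assisting protein. Gp9 encodes glycoprotein IX, a small subunit of the platelet GPIb-IX-V receptor, which holds platelets to von Willebrand factor on damaged vessel walls. None of the 3 genes is in general use as a marker of skin or of muscle.

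Of the 3 genes, RefSeq's promoter table held Gp9, on build GRCm38.p6, at chr6:87777820-87778119 on the plus strand. Its sequence is shown because Gp9 is the member with a well-known lineage, the megakaryocyte, whose genes are known to carry GATA and Ets motifs near their start sites. Capitals mark the letters GATAA and GGAAG on either strand.
Gp9: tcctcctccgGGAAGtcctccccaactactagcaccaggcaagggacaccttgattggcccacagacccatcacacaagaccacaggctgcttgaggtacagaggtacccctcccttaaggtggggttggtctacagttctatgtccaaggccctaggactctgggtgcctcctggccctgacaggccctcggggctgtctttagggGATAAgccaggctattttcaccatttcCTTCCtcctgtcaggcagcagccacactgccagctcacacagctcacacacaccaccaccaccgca
The window runs from 250 bases before to 50 bases after the start of Gp9. GATAA was found 1 time on the plus strand, and 25.4% of the 32851 promoters in the table hold it. GGAAG was found 2 times, once on each strand, and 71.4% of the promoters hold it; both short motifs were chosen after the sequence had been seen. None of the longer or other motifs searched on both strands was found: CANNTG (in 72.3% of promoters), AGATAA (11.2%), CCGGAAG (8.86%), TATAAA (13.6%) and CCACCC (31.5%). AGATAA contains GATAA, and CCGGAAG contains GGAAG.

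All 3 genes were higher in every PC61 sample than in every PBS sample, a separation that goes with the large differences that chose them. Of the 10096 genes, 1038 had no such overlap and were called higher by limma at an adjusted p under 0.05. Levels below are normalised log2 intensities of single probes, which set samples against each other but not genes. Syndig1l read 10.98, 9.78, 11.14 and 11.38 in PC61 replicates 1 to 4, against 8.28, 8.78, 9.06, 5.83 and 7.46 in PBS replicates 1 to 5. The lowest PC61 sample, replicate 2, stood above the highest PBS sample, replicate 3, and PBS replicate 4 was the lowest of all 9.

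Tro read 10.52, 9.15, 10.58 and 11.15 in the PC61 samples, against 7.39, 8.36, 8.55, 5.96 and 6.84 in the PBS samples. Gp9 read 10.55, 9.56, 10.96 and 11.18 in the PC61 samples, against 8.28, 8.57, 8.89, 6.01 and 7.45 in the PBS samples. The order of the 9 samples was the same for all 3 genes: PC61 replicates 4, 3, 1 and 2, followed by PBS replicates 3, 2, 1, 5 and 4. The steps between neighbours in this order within a group were mostly smaller than the group's SD, and replicates of a group have no order of their own. PBS replicate 4 was also the sample nearest to background, with a raw detection p of 0.00641 for each of the 3 probes and 0 on every other array.

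**Figure D1:**
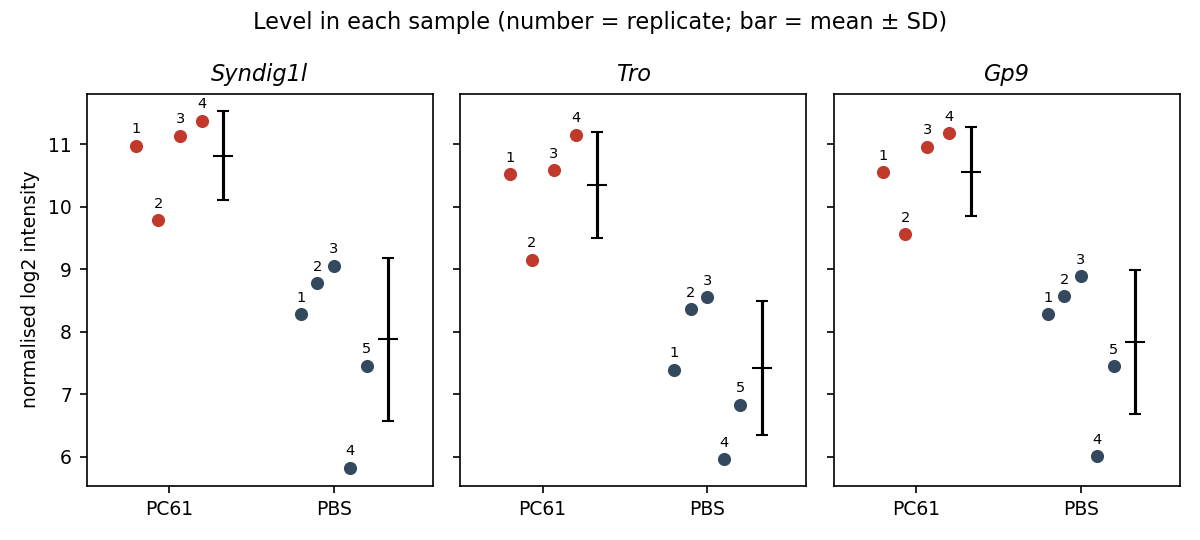
Normalised log2 intensity (vertical axis) of Syndig1l, Tro and Gp9 in each PC61 sample (4, left in each panel) and PBS sample (5, right), 1 point per sample with its replicate number, and mean ± SD beside each group. No PC61 point overlaps a PBS point, PC61 replicate 2 is the lowest of its group and PBS replicate 4, at 5.83 to 6.01, the lowest of all.

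Because these differences selected the genes, they are given as a description with no test. Syndig1l averaged 10.82 ± 0.71 in PC61 and 7.88 ± 1.30 in PBS samples (SD, n = 4 and 5), a log2 difference of 2.94 ± 0.59 (SE), or 7.67-fold. Tro averaged 10.35 ± 0.85 in PC61 and 7.42 ± 1.08 in PBS samples, a log2 difference of 2.93 ± 0.54, or 7.63-fold. Gp9 averaged 10.56 ± 0.72 in PC61 and 7.84 ± 1.15 in PBS samples, a log2 difference of 2.72 ± 0.54, or 6.60-fold.

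Among the 1038 genes that were called higher with no overlap between groups, these differences ranked 1, 2 and 4. The gene at rank 3 was Stra6, a receptor for retinol uptake, at 2.75, and the genes just below Gp9 were Tgm3, an epidermal transglutaminase, at 2.70, Krtap4-13 at 2.69 and Ky at 2.69. The gap between Gp9 and Tgm3 was thus far smaller than the SE of either. In the authors' deposited table, made by quantile normalization of the linear intensities, the PC61 over PBS ratios were 6.35 for Syndig1l, 6.83 for Tro and 5.75 for Gp9. For scale, 15.4% of the 10096 genes were called higher and 11.2% lower in PC61 by limma at an adjusted p under 0.05, and the median log2 difference of all genes was -0.05.

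The 3 genes also varied widely inside each group. Their pooled within-group SDs were 1.09 for Syndig1l, 0.99 for Tro and 0.99 for Gp9, above 98.6%, 97.6% and 97.7% of all genes. The largest single deviation of each was in PBS replicate 4, where Syndig1l lay at -2.05, Tro at -1.46 and Gp9 at -1.83 relative to its own PBS mean. Without that sample the log2 differences were 2.43 for Syndig1l, 2.57 for Tro and 2.26 for Gp9.

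The profiles of the 3 genes across the 9 samples were nearly the same curve. Likeness was measured as a distance, the mean absolute difference between log2 values of 2 genes over the 9 samples after each gene's own mean was subtracted, so that 0 means the same shape and size of change. Syndig1l and Gp9 lay 0.13 apart, Syndig1l and Tro 0.20, and Tro and Gp9 0.22. The median over the 10093 other genes was 1.49 from Syndig1l, 1.49 from Tro and 1.39 from Gp9, and a gene with no change at all would lie 1.45, 1.45 and 1.34 away. All 3 were chosen for large differences of 1 direction, so a short distance between them was in part fixed by the choice.

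A second distance removed that part by subtracting each gene's own PC61 mean and PBS mean. Syndig1l and Gp9 then lay 0.10 apart, Syndig1l and Tro 0.20, and Tro and Gp9 0.23. Of all genes measured, none lay nearer to Syndig1l than Gp9 by either distance. Inside the groups, 4 genes lay nearer to Syndig1l than Tro did, and 19 lay nearer to Gp9 than Tro did. Tro was therefore the least alike of the 3: its largest gap to Syndig1l on 1 array was 0.60, in PBS replicate 4, and its largest gap to Gp9 was 0.56, in PBS replicate 1.

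The difference in PBS replicate 1 can be seen in the values relative to the PBS mean, where Tro stood at -0.03, against 0.40 for Syndig1l and 0.44 for Gp9. The count of genes nearer to Syndig1l than Tro inside the groups was 1 to 36 over the alternatives, the highest without PBS replicate 2, 1 with an offset of 50 and 3 with cyclic loess. Gp9 was the nearest named gene to Syndig1l in all 19 alternative settings and sample omissions tried. Array weights and the replicate block, counted among them, leave distances unchanged.

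Pairs of probes that target 1 gene gave a scale for such distances. Over 320 pairs whose probes both had a within-group SD of at least 0.66, the median distance was 0.23, with a range of 0.06 to 1.16. Of these pairs, 33 were nearer than Syndig1l to Gp9, 124 nearer than Syndig1l to Tro and 152 nearer than Tro to Gp9. With group means removed, the median of these pairs was 0.21, with a range of 0.05 to 0.97, and 21, 151 and 179 of them were nearer than Syndig1l to Gp9, Syndig1l to Tro and Tro to Gp9. Inside the groups, Syndig1l and Gp9 were thus nearer than most such pairs, and Tro lay at about their median from both. The sequences of the 3 probes were not used here, and whether the probes share sequence was not tested.

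The 3 genes were next set beside lists of skin and muscle genes. Epidermal keratinocytes build the skin barrier from keratins and cornified-envelope proteins, hair follicles add hair keratins and keratin-associated proteins, and skeletal muscle is marked by sarcomere and calcium-handling proteins. Genes of all 3 tissues rose in PC61. Of the keratinocyte genes listed, 25 of 32 were measured and 21 were called higher in PC61, of the hair follicle genes 21 of 29 were measured and all 21 called higher, and of the skeletal muscle genes 30 of 38 were measured and 29 called higher, against 15.4% of all genes. None of these genes was called lower. Their median log2 differences were 1.99, 1.81 and 1.94. The 2.72 to 2.94 of Syndig1l, Tro and Gp9 lay above these medians, which follows from their choice by the size of this difference. In these bulk samples a larger share of a tissue and more RNA per cell cannot be told apart.

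The counts rested in part on PC61 replicate 3. Without it, 8 keratinocyte, 8 hair follicle and 18 skeletal muscle genes were called higher. Calls fell over the whole table too, to 527 of the 10096 genes, against 1552 with all samples. Without PC61 replicate 1 the hair follicle count was 13. The keratinocyte genes measured but not called were Lor, Krt77, Krt1 and Itga6, and the muscle gene not called was Eno3.

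The 3 genes of each list with the highest mean probe intensity are given next. Those of the keratinocyte list differed by less than its median of 1.99. Krt10, a keratin of differentiating epidermis, was 1.05 ± 0.34 (SE) higher on the log2 scale (limma, Benjamini-Hochberg adjusted p = 0.0432), and Krt14, a keratin of the basal layer, 1.14 ± 0.35 higher (adjusted p = 0.0352). Lor, which encodes the cornified-envelope protein loricrin, differed by 1.11 ± 0.40 and did not pass (adjusted p = 0.0599). The inner root sheath keratins Krt27 (1.10 ± 0.36, adjusted p = 0.0463) and Krt71 (1.54 ± 0.45, adjusted p = 0.0297) and the hair keratin Krt34 (1.71 ± 0.45, adjusted p = 0.0224) rose. Each of the 5 keratin calls was lost in at least 1 omission of a single sample, among them PC61 replicate 3, where the adjusted p was 0.0999 for Krt10, 0.0954 for Krt14, 0.0982 for Krt27, 0.0764 for Krt71 and 0.0600 for Krt34.

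Among muscle genes, Acta1, the skeletal actin, rose by 1.99 ± 0.37, Atp2a1, the calcium pump of fast muscle, by 1.95 ± 0.37 and Myl1, a myosin light chain, by 1.63 ± 0.32 (limma, adjusted p = 0.0122 for each). These 3 calls held in every omission of a single sample.

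The summed shape of each list can be followed sample by sample as the mean of its genes relative to their PBS means. The keratinocyte mean was 1.74, 0.94, 1.91 and 2.81 in PC61 replicates 1 to 4, against 0.56, -0.18, 0.86, -1.29 and 0.05 in PBS replicates 1 to 5. The hair follicle mean was 1.84, 1.14, 1.80 and 2.32 in PC61, against 0.62, -0.04, 0.68, -1.29 and 0.02 in PBS. The skeletal muscle mean was 1.53, 0.94, 2.19 and 2.50 in PC61, against 0.28, -0.27, 0.40, -0.66 and 0.26 in PBS. All 3 tissues thus shared with Syndig1l, Tro and Gp9 the highest value in PC61 replicate 4, the lowest PC61 value in replicate 2 and the lowest value of all in PBS replicate 4. These features were not particular to skin and skeletal muscle. The mean of the measured receptor partners of Gp9 and that of the smooth muscle and pericyte list had them too. The fibroblast, mast cell and adipocyte means had the same low points, but were highest in PC61 replicate 3.

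The 3 genes departed from the means of the skin and muscle lists in PBS replicate 2. Syndig1l stood at 0.90, Tro at 0.94 and Gp9 at 0.73 above their PBS means there, the second-highest PBS value of each, while the keratinocyte, hair follicle and muscle means were between -0.27 and -0.04. Other genes were high in that sample too: the adipocyte mean stood at 1.23, the mean of the trophinin partners at 0.92, the fibroblast mean at 0.37 and Ptn, a gene near to Syndig1l and Tro, at 1.09. Single skin genes near to the 3 genes differed there. Krtap10-10 stood at 0.66, Krtap28-13 at 0.57, Krtap13-1 at 0.51 and Aqp3 at 0.44, but Bmp4 at 0.10 and Dlx3 at 0.05. The departure is thus from the list means and not from every skin gene. In PBS replicate 4 the dip of the 3 genes, -1.46 to -2.05, was deeper than the means of the skin lists at -1.29 and of the muscle list at -0.66. The same single skin genes dipped about as far there as the 3 genes. Krtap10-10 stood at -2.03, Krtap28-13 at -1.96, Krtap13-1 at -1.89, Bmp4 at -1.83, Dlx3 at -1.70 and Aqp3 at -1.49. This dip too thus departed from the list means and not from every skin gene.

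**Figure D2:**
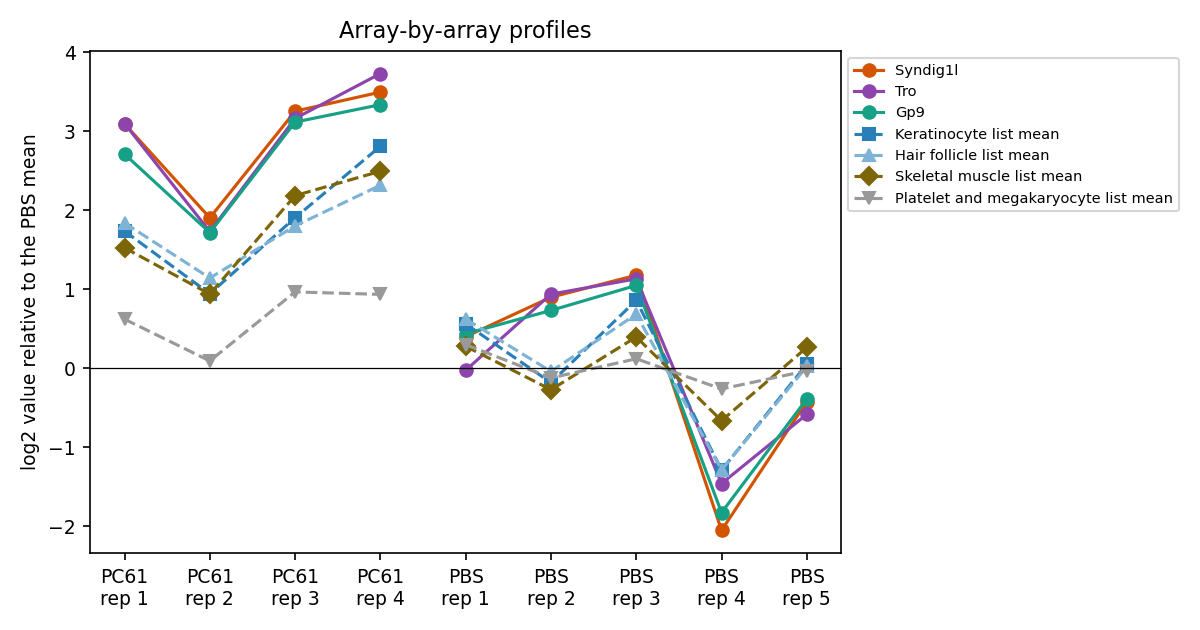
Log2 value relative to the PBS mean (vertical axis) in each of the 4 PC61 and 5 PBS samples (horizontal axis) for Syndig1l, Tro and Gp9 (solid lines) and for the mean of the measured keratinocyte, hair follicle, skeletal muscle and platelet genes (dashed lines). The solid lines run together and share the low points at PC61 replicate 2 and PBS replicate 4 with the skin lists, but stand above the 4 lists drawn at PBS replicate 2, at 0.73 to 0.94.

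By distance, skin genes were the closest lists and muscle genes the next. The median distance to keratinocyte genes was 0.68 from Syndig1l, 0.64 from Tro and 0.56 from Gp9. To hair follicle genes it was 0.71, 0.71 and 0.59, and to skeletal muscle genes 0.76, 0.75 and 0.64. Muscle genes thus lay farther than keratinocyte genes by 0.08, 0.11 and 0.08 in these medians. This distance includes the difference that chose the 3 genes. Since the lists' own changes were smaller than those of the 3 genes, it also reflects size.

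Once the group means were removed, the margin between skin and muscle was wider relative to the distances. The within-group median was 0.47 from Syndig1l, 0.47 from Tro and 0.39 from Gp9 to keratinocyte genes, and 0.43, 0.50 and 0.39 to hair follicle genes. To skeletal muscle genes it was 0.59, 0.60 and 0.51. The medians over all genes were 0.81, 0.77 and 0.76, and a gene flat inside each group would lie at 0.78, 0.73 and 0.72. Lists of fibroblast, mast cell and adipocyte genes, at 0.48 to 0.59 from the 3 genes, lay about as near as muscle. Melanocyte genes lay farthest at 1.40 to 1.47. Of the 16 measured, 6 were called lower in PC61 and none higher, against 11.2% and 15.4% of all genes.

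Over all samples, the order of skin before muscle depended on PBS replicate 4. Without it the list nearest to Gp9 was skeletal muscle, at a median of 0.49, against 0.51 for keratinocyte and 0.53 for hair follicle genes. From Syndig1l the medians were then 0.57 for muscle, 0.55 for keratinocyte and 0.61 for hair follicle genes, and from Tro 0.68, 0.64 and 0.71.

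Within groups, muscle genes lay farther from each of the 3 genes than the nearer skin list in all 19 alternatives, including array weights and the replicate block, which leave distances unchanged. Without PBS replicate 4, for example, the medians from Gp9 were 0.38 for keratinocyte, 0.39 for hair follicle and 0.42 for muscle genes. Fibroblast genes, also at 0.39, then lay as near to Gp9 as hair follicle genes. Without PBS replicate 4 and PC61 replicate 4 together, an omission chosen after the data had been seen, T cell genes came to 0.41 from Syndig1l, against 0.42 for keratinocyte and 0.43 for hair follicle genes. From Gp9 the medians were then 0.37 for keratinocyte and for fibroblast genes, and 0.39 for hair follicle, platelet and T cell genes. The within-group margin of skin over these other lists was thus small or absent for Syndig1l and Gp9 without these samples.

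**Figure D3:**
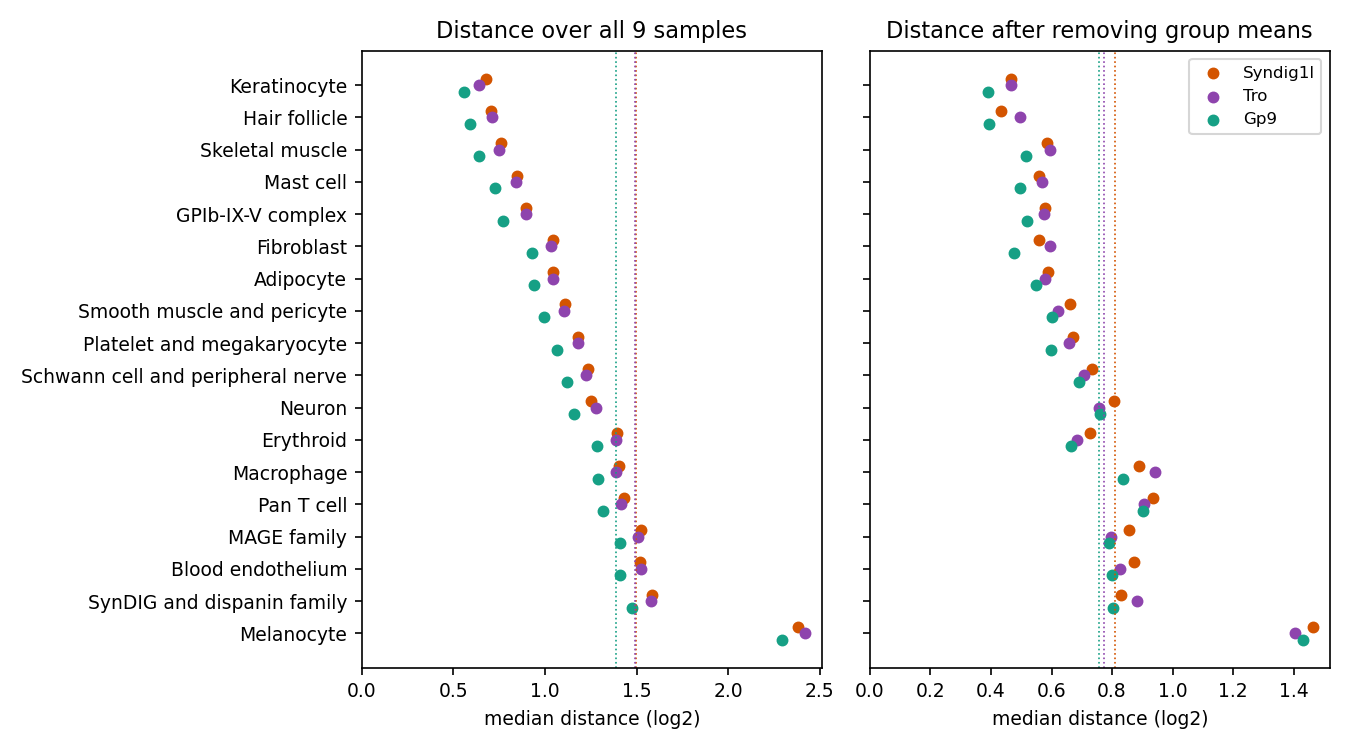
Median distance in log2 units (horizontal axes) from Syndig1l, Tro and Gp9 to the measured genes of each list, over all 9 samples (left) and after each gene's group means were removed (right), with dotted lines at the median over all genes. Keratinocyte and hair follicle genes are nearest in both panels, at 0.56 to 0.71 on the left and 0.39 to 0.50 on the right, and melanocyte genes farthest.

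The single genes nearest to the 3 genes over all samples were 7 in number, of which Dlx3 belongs to a list used here, and this distance includes the difference that chose the 3 genes. Those nearest to Syndig1l were Krtap28-13, a keratin-associated protein gene, at 0.36, Ptn, a heparin-binding growth factor, at 0.36, Dlx3, a homeobox gene of hair and epidermis, at 0.38, Bmp4, a growth factor of hair follicle and many other tissues, at 0.40 and the hair keratin Krt84 at 0.41. Those nearest to Tro were Bmp4 at 0.39, Krtap28-13 at 0.40, Aqp3, the water and glycerol channel of epidermis, at 0.43, Ptn at 0.44 and Dlx3 at 0.44. Those nearest to Gp9 were Krtap28-13 at 0.24, Bmp4 at 0.28, Krt84 at 0.30, Aqp3 at 0.31 and Fads3, a fatty acid desaturase family gene, at 0.32. Krtap28-13 and Bmp4 appear beside all 3 genes, and no skeletal muscle gene of the list appears beside any.

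Krtap28-13 read 11.65, 10.38, 11.70 and 11.78 in PC61 replicates 1 to 4, against 9.92, 9.71, 9.98, 7.18 and 8.90 in PBS replicates 1 to 5. Like Syndig1l, Tro and Gp9, it was lowest of the PC61 samples in replicate 2 and lowest of all in PBS replicate 4, and its groups did not overlap. Over all 10096 genes, 1038 were called higher without overlap. Keratin-associated protein genes are close copies of each other, so the identity of any 1 of them is uncertain on a probe.

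Inside the groups the nearest genes were sought among those with a within-group SD within 1.5 times that of each gene, 889 for Syndig1l, 1216 for Tro and 1202 for Gp9. Chil1, a chitinase-like protein gene, came first for all 3, at 0.17 from Syndig1l, 0.24 from Tro and 0.13 from Gp9. Syndig1l was next nearest to Krtap10-10 (0.17), Krtap28-13 (0.18), Krtap13-1 (0.20) and the late cornified envelope gene Lce1l (0.21). Gp9 was next nearest to Krtap10-10 (0.16), Krtap13-1 (0.16), Ly6g6d (0.17) and Krtap28-13 (0.17).

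Tro had other neighbours: Tenm4, a teneurin, at 0.28, Slc24a3, an exchanger of sodium, potassium and calcium, at 0.28, the cornified envelope gene Lce1d at 0.28 and the signalling ligand gene Wnt4 at 0.29. Chil1 read 8.22, 6.95, 8.09 and 8.66 in PC61 replicates 1 to 4, against 6.58, 6.76, 7.09, 4.39 and 5.96 in PBS replicates 1 to 5. In contrast to the 3 genes, its groups overlapped, since PC61 replicate 2 lay below PBS replicate 3.

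This search did not use the difference between the groups. Of the 10 genes found, 9 were called higher in PC61, and Lce1l was not (log2 difference 1.10 ± 0.54, limma adjusted p = 0.148). The background for this count is not the 15.4% of all genes, because 44.8%, 44.1% and 44.3% of the genes with a similar spread to Syndig1l, Tro and Gp9 were called higher. All 9 calls were lost without PC61 replicate 3, an omission that left 527 of all 10096 genes called higher, against 1552 with all samples.

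The relatives of Syndig1l lay about as far from its profile as any gene, at a median distance of 1.58, against 1.49 over all genes. Of 14 other dispanin genes listed, 5 were measured and 0 were called, and 0 had an unadjusted p under 0.05. Ifitm3 and Ifitm1, interferon-induced antiviral membrane proteins, differed by -0.72 ± 0.39 (limma adjusted p = 0.186) and -0.85 ± 0.42 (adjusted p = 0.147). Ifitm2 differed by -0.26 ± 0.28 (adjusted p = 0.493), Ifitm6 by 0.75 ± 0.40 (adjusted p = 0.182) and Prrt1, which is also known as SynDIG4, by 0.11 ± 0.18 (adjusted p = 0.656). Without PC61 replicate 2, Ifitm1 was called lower, at -1.17 (adjusted p = 0.0384). Of the 19 AMPA receptor and auxiliary genes listed, only Pick1, a scaffold that binds AMPA receptors, was measured, at -0.24.

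The relatives of Tro likewise lay at a median distance of 1.51, against 1.49 over all genes. Of 23 other MAGE genes listed, 4 were measured and 1, Ndn, the imprinted gene of necdin, rose, by 0.82 ± 0.22 (limma adjusted p = 0.0239). Over all genes, 15.4% were called higher. Ndn read 8.23, 7.77, 8.65 and 8.39 in PC61 replicates 1 to 4, against 7.75, 7.73, 7.29, 7.19 and 7.23 in PBS replicates 1 to 5. Its groups did not overlap, and 1038 of the 10096 genes were likewise called higher without overlap. The call of Ndn was lost without PBS replicate 4 (limma adjusted p = 0.0549), PBS replicate 5 (0.0589) or PC61 replicate 3 (0.0756).

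The closest relatives of Tro by family, Maged1 and Maged2, differed by -0.62 ± 0.23 (adjusted p = 0.0670) and -0.38 ± 0.21 (adjusted p = 0.188), and Magee1 by 0.20 ± 0.18 (adjusted p = 0.429). Without PC61 replicate 2, Maged1 was called lower, at -0.85 (adjusted p = 0.00856), and the count of MAGE genes called lower was 1 with scaling to the 75th percentile and 2 with array weights, against 0. Maged2 is also the measured gene next to Tro on the X chromosome. Of the genes that work with trophinin in human cell adhesion, 4 of 6 were measured and 0 were called, with 1 at an unadjusted p under 0.05. That gene was Troap, the gene of trophinin-assisting protein, which is also a spindle protein of dividing cells, at -1.08 ± 0.39 (adjusted p = 0.0592), and it was called lower without PC61 replicate 2 (-1.41, adjusted p = 0.0115). Krt18, Krt8 and Hbegf differed by 1.08 ± 0.70, 0.74 ± 0.76 and 0.51 ± 0.25, with adjusted p of 0.258, 0.490 and 0.143.

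The 2 measured partners of Gp9 in its receptor, Gp1bb and Gp5, were called higher in PC61, from signals near background in PBS. Gp1bb, the beta chain of glycoprotein Ib, read 6.66, 5.95, 6.87 and 7.14 in PC61 replicates 1 to 4, against 5.25, 4.76, 5.60, 4.68 and 5.53 in PBS replicates 1 to 5, and rose by 1.49 ± 0.28 (limma adjusted p = 0.0122). Gp5, the glycoprotein V subunit, read 6.43, 6.11, 6.49 and 6.60 in PC61, against 5.44, 4.77, 5.72, 4.73 and 4.74 in PBS, and rose by 1.33 ± 0.25 (adjusted p = 0.0122). Neither gene's groups overlapped, as in 1038 of the 10096 genes, counting those called higher, and both calls held in every omission of a single sample. Gp1bb was detected in 3 and Gp5 in 2 of the 5 PBS samples and both in all PC61 samples, so each met the detection filter with the help of the group in which it was high, and their count says nothing of the receptor. The sizes depend on the treatment of dim probes: their median was 0.87 with a background offset of 50, against 1.41. Gp1ba, the alpha chain, was not measured.

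Gp1bb and Gp5 lay 0.75 and 0.78 from Gp9 over all samples, beyond the median skin or muscle gene of the lists. That distance includes the size of the change, which for both depends on the treatment of dim probes. Inside the groups they lay at 0.54 and 0.50 from Gp9. The medians there were 0.39 for keratinocyte and for hair follicle genes, 0.51 for skeletal muscle genes and 0.76 over all genes. Of 30 other platelet and megakaryocyte genes listed, 10 were measured and 2 were called higher, or 20%, a share near the 15.4% of all genes. Their median log2 difference was 0.65, with a range of -0.17 to 1.79, against a median of -0.05 over all genes. Alox12, the platelet-type lipoxygenase, which is also expressed in epidermis, rose by 1.79 ± 0.43 (limma adjusted p = 0.0178), a call lost without PC61 replicate 3 (adjusted p = 0.0545). Itga2b, the platelet fibrinogen receptor's alpha chain, rose by 1.03 ± 0.21 (adjusted p = 0.0130) and was detected in 2 of 5 PBS samples. It thus also met the detection filter with the help of the PC61 group, which limits the platelet count.

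Of the 3 platelet genes with the highest mean probe intensity, Alox12 passed and Pf4 and F13a1 did not. Pf4, a chemokine of platelet granules, read 8.04, 8.44, 9.45 and 7.49 in PC61 replicates 1 to 4, against 8.58, 8.74, 7.82, 7.46 and 7.92 in PBS replicates 1 to 5, a difference of 0.25 ± 0.38 (limma adjusted p = 0.652). F13a1, the factor XIII A chain, differed by 0.38 ± 0.34 (adjusted p = 0.430). The mean of the platelet genes relative to PBS was 0.62, 0.09, 0.97 and 0.94 in PC61, against 0.30, -0.12, 0.12, -0.26 and -0.03 in PBS. The platelet count was 6 without PC61 replicate 2, where 1986 of all 10096 genes were called higher. It was 1 without PC61 replicate 3, where 527 of all genes were. Without PC61 replicate 2 the platelet share was thus not near that of all genes.

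**Figure D4:**
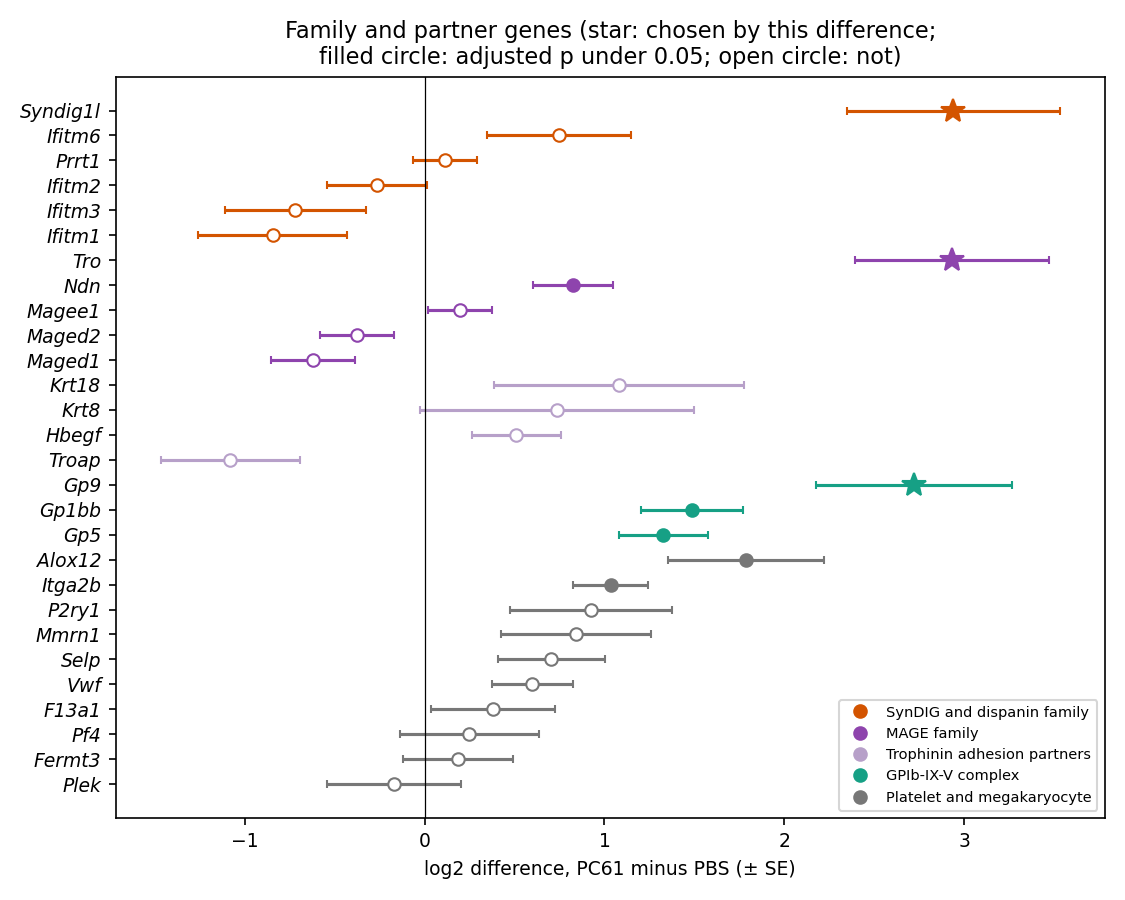
Log2 difference, PC61 minus PBS, with its SE (horizontal axis) for Syndig1l, Tro and Gp9 (stars, chosen by this difference) and the measured genes of their families, partners and the platelet list (circles, filled where the limma adjusted p was under 0.05; colours mark the lists). The stars at 2.72 to 2.94 lie to the right of all circles, of which Alox12 at 1.79 is the highest.

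The samples differed in ways that touch all of these results. PC61 replicate 4 had the lowest melanocyte level, a mean of -4.22 relative to PBS, against -0.31 to -1.64 in the other PC61 samples and -0.32 to 0.37 in PBS samples; it was also the sample with the highest Syndig1l, Tro and Gp9. The melanocyte genes Dct and Pmel were detected on all arrays. Foxp3, the defining transcription factor of Treg, averaged 8.73 ± 0.18 in PC61 and 9.05 ± 0.24 in PBS samples (SD), a difference that did not pass (limma adjusted p = 0.203). Between 19772 and 20742 probes were detected in PC61 samples, against 18572 to 20002 in PBS samples, with the fewest in PBS replicate 4. The part that tissue makeup, or the number of arrays, has in the values of the 3 genes was not tested.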

How the data were processed

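Raw probe intensities with detection p-values, and a quantile-normalized intensity matrix with a ratio of group means and Benjamini-Hochberg adjusted p-values, were deposited by the authors, per the file headers; which test gave the authors' p-values is not stated there. The matrix holds 17382 probes, of which 14942 have 1 symbol in the platform annotation, 8 several and 2432 none; 14927 gene IDs matched RefSeq. Only probes of this matrix could carry a symbol, so a gene with no named probe in it counts as not measured. Of 45273 raw probes, 3 with invalid detection p-values were removed. The rest were background-corrected with limma 3.58.1's neqc (offset 16) in R 4.3.3, quantile normalized and put on the log2 scale. A probe needed a detection p below 0.05 in 4 or more samples, which 20190 met, and the brightest probe (by mean over all samples) stood for each of 10096 named genes; 3516 genes had several, and other probes of a gene can disagree.

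PC61 (4) and PBS (5) were compared with limma's lmFit and eBayes and Benjamini-Hochberg adjustment, calling genes at an adjusted p under 0.05; the script was tested on simulated data. The genes described and all lists were chosen with earlier results of these data known. Named genes are the 3 genes, the 5 nearest to each by each distance and the 3 brightest of the skin, muscle and platelet lists. All measured family and partner genes, and genes that a count turns on, are named as well. Itga2b, and the uncalled skin and muscle genes, were named after their values were seen, as was the scale from probe pairs of 1 gene. Alternatives were other background corrections, scalings, filters, array weights, probe rules, a replicate block and omitted samples. The number of arrays limits the precision.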

Additional observations from a re-analysis of the deposited data

How the results depend on the processing

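Syndig1l, Tro and Gp9 were higher in PC61 in all 19 alternatives, with log2 differences of 2.24 to 3.28, 2.30 to 3.33 and 2.06 to 3.06. Counts of genes over the whole table moved more. Leaving out single samples gave 527 to 1986 genes called higher and 226 to 1768 called lower, against 1552 and 1127 with all samples; the lowest counts came without PC61 replicate 3 and the highest without PC61 replicate 2. Array weights gave 2272 higher and 2225 lower. Leaving out PC61 replicate 4 and PBS replicate 4 together gave 920 higher and 483 lower. Cyclic loess gave 1831 higher and 858 lower, and scaling to the 75th percentile 1442 and 1359. The cause of these shifts was not tested.

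The groups share replicate numbers, but samples of the same number did not deviate together (correlations of -0.24, 0.01, 0.00 and -0.33 for numbers 1 to 4, and 0 of 4 samples best with their own number). These correlations cannot exclude a pairing, because deviations inside a group also follow whatever else differs between samples. The main comparison left the samples unpaired. With the replicate block, 0 genes were called higher and 0 lower, with 3049 genes at an unadjusted p under 0.05 (PBS replicate 5 has no partner and adds nothing), and the log2 differences were 2.83 for Syndig1l, 2.79 for Tro and 2.62 for Gp9. The nearest list was keratinocyte or hair follicle in 112 of 114 combinations of gene, distance and alternative. The distance over all samples includes the difference that chose the 3 genes. Its share of these combinations was thus in part fixed by the choice, since the skin lists rose strongly too. Array weights and the replicate block change only the limma fit, so their combinations repeat the main distances. Over all samples, muscle genes lay farther from Gp9 than the nearer skin list by 0.0826; leaving out single samples gave -0.0190 (without PBS replicate 4) to 0.168. Signal near background limits Gp5, Gp1bb and Itga2b.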

Other observations

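The measured genes that flank Syndig1l, Tro and Gp9 on their chromosomes were not called in either direction. Beside Syndig1l on chromosome 12, Abcd4, a peroxisomal-family transporter gene, differed by -0.30 ± 0.24 on the log2 scale and Npc2, a lysosomal cholesterol carrier gene, by -0.86 ± 0.30 (limma adjusted p = 0.366 and 0.0528). Beside Tro on chromosome X, Alas2, an erythroid haem synthesis gene, differed by 0.12 ± 0.27 and Maged2 by -0.38 ± 0.21 (adjusted p = 0.759 and 0.188). Beside Gp9 on chromosome 6, Aplf, a DNA repair gene, differed by -0.26 ± 0.26 and Rab43, a small GTPase gene, by -0.62 ± 0.35 (adjusted p = 0.475 and 0.205). Their distances from the 3 genes, 1.39 to 1.87, were near the medians over all genes or above them.

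Of 20190 detected probes, 5284 carry no symbol in the annotation used. One of them lay 0.16 from Tro over all 9 samples, nearer than Syndig1l or Gp9. The nearest unnamed probe to Syndig1l lay at 0.21 and to Gp9 at 0.23. What these probes target is not known here.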
